A study of Mus musculus with 12 samples.

Results

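The genes described here encode Hdac3 and the core subunits of the corepressor complex it works in, Ncor1, Tbl1x, Tbl1xr1 and Gps2. Members were the probe sets of the deposited expression table whose gene symbol in the platform's annotation was one of these 5 names. They were 5 of 28193 probe sets and stood for 4 of 19945 genes, because Tbl1xr1 had a pair of them and Ncor1 had no row used here and was not analysed here. Their signals were followed across 12 single-colour arrays of mouse bone marrow-derived macrophages, split evenly (n = 3) over 4 conditions: Hdac3 -/- macrophages given LPS, Hdac3 -/- macrophages left untreated, Hdac3 +/- macrophages given LPS and Hdac3 +/- macrophages left untreated. All were grown from C57BL/6 marrow in medium conditioned by L929 cells, which supplies the macrophage growth factor CSF1, and were taken on day 7 of culture. LPS, the endotoxin of bacterial outer membranes that TLR4 detects, was given at 100 ng/ml for 4 h. The submitters call the +/- cells wild type, so the comparison is of no intact Hdac3 allele with 1 and not with a full pair. The sources used here do not say how the allele was deleted, which driver was used or how old the mice were. The labels do not tie replicates to separate animals, and p-values therefore describe array-to-array spread alone. In cultured bulk samples fewer cells of a type and less RNA per cell cannot be told apart.

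Hdac3 is a histone deacetylase that has little activity alone and is switched on when it binds a corepressor scaffold protein such as NCoR (Ncor1). Tbl1x and its close relative Tbl1xr1 are WD-repeat subunits that hold the complex on chromatin and also serve as adaptors for its ubiquitin-dependent exchange for coactivators, while Gps2 is a small subunit that bridges the scaffolds and the Tbl1 proteins. In macrophages the complex is known for keeping inflammatory genes silent at rest through unliganded nuclear receptors and other DNA-binding factors, and Hdac3 is also known to be needed for part of the inflammatory programme itself.

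The promoters of Gps2, Tbl1x and Tbl1xr1 are shown because these 3 genes carried the results beyond Hdac3 itself. Each window runs from 250 bases before the RefSeq start of the gene to 50 bases from it on the plus strand of GRCm38.p6, which are chr11:69913770-69914069 for Gps2, chrX:77510977-77511276 for Tbl1x and chr3:22076402-22076701 for Tbl1xr1. Capitals mark matches to 6 motifs searched on both strands, an interferon response element (GAAANNGAA), an NF-kB site (GGANTTTCC), a cyclic AMP response element (TGACGTCA), its shorter form (TGACG, which the full element contains), an ETS site (CCGGAA) and a TATA box (TATAAA).
Gps2: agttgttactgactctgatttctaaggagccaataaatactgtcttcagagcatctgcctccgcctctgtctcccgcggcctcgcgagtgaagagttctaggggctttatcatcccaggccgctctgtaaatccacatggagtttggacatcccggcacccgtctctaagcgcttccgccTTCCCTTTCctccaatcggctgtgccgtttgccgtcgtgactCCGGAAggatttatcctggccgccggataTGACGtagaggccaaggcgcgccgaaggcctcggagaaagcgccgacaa
Tbl1x: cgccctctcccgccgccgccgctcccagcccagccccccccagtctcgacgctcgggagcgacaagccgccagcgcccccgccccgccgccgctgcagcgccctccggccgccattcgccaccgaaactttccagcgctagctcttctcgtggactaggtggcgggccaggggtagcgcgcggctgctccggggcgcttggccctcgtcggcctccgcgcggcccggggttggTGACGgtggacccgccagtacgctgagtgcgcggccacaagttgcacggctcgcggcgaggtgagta
Tbl1xr1: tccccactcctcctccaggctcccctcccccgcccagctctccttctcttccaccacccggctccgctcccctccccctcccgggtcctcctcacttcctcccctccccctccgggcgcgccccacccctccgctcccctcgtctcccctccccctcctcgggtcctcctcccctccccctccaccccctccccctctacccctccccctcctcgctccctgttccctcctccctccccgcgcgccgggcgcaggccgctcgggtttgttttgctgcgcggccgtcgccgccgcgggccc

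The Gps2 window held the interferon letters on the minus strand 70 bases before the gene's start, CCGGAA 28 bases before it and TGACG at base 2 of the gene. The Tbl1x window held TGACG 17 bases before the start, and none of the 6 motifs was in the Tbl1xr1 window. Of all 32851 mouse promoter windows of this length 14.9% held CCGGAA and 20.8% held TGACG. The interferon letters were in 8.56%, the NF-kB letters in 1.25%, the full cyclic AMP element in 1.79% and TATAAA in 13.6%. These windows were richer in GC and CpG than the median window. Their GC content was 56.7% for Gps2, 75.3% for Tbl1x and 76.3% for Tbl1xr1 against a median of 52.7% over all windows, and they held 24, 43 and 25 CpG dinucleotides against a median of 7. A match is a description of letters and says nothing of whether a factor binds there.

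The arrays were alike in level and carried macrophage RNA. Array medians lay between 5.19 and 5.37 on the log2 scale. The spread of signals on an array was less alike. Interquartile ranges ran from 3.19 to 3.485 in LPS-treated +/- cells and from 3.39 to 3.70 in LPS-treated -/- cells. All 10 macrophage markers listed were measured, and their mean on an array lay between 10.92 and 11.49, while the marker lists of neutrophils, dendritic cells, T cells, B cells, mast cells and eosinophils, stromal cells and erythroid cells had array means of 3.58 to 5.69. After LPS the array means of 5 of these 7 lists were lower in -/- cells without overlap. They were 3.58 to 3.93 in -/- against 4.02 to 4.25 in +/- cells for B cells, and 4.33 to 4.60 against 4.66 to 4.73 for dendritic cells. They were 3.86 to 4.15 against 4.34 to 4.70 for mast cells and eosinophils, 4.18 to 4.22 against 4.27 to 4.71 for neutrophils, and 5.12 to 5.29 against 5.33 to 5.69 for stromal cells. At rest the neutrophil list was also lower in -/- cells without overlap (4.00 to 4.13 against 4.27 to 4.68). So was the mast cell and eosinophil list (3.65 to 3.70 against 3.83 to 4.11), while the others overlapped. How often genes at large stand apart in this way was not counted. These lists are dim: apart from Cd3e, Col1a1, Col1a2 and Col3a1, each marker's median over the arrays was below that of all probe sets (5.27). Single genes weigh on the list means. Mast cell and eosinophil differences after LPS ran from -2.17 (Ccr3) to 0.08, with a median of -0.12. Those of the neutrophil list ran from -0.66 to 0.27, the latter for Camp, and none was called. Called between genotypes after LPS were Ccr3 (-2.17), Xcr1 (-0.70) and Dcn (-0.71), and of the macrophage markers Fcgr1 (-2.41) and Marco (2.93). At rest 1 neutrophil, 1 B cell and 1 macrophage marker were called, each lower in -/- cells (all genes 1.44% lower). The part of these markers and lists in the genotype differences of the members was not tested. Replicate 1 of the Hdac3 +/- cells differed from the other 10 arrays in sex-linked transcripts. Xist, made in female cells, was 3.20 there after LPS and 3.93 untreated, against 9.67 to 10.97 on the others. Y-linked Eif2s3y was 7.93 and 7.76 on these arrays against 2.20 to 2.47. The genotypes thus differ in the mix of sexes, and the separate genotype and LPS differences of the X-linked Tbl1x are given with and without this pair of arrays.

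Hdac3 fell in the -/- cells in both states. Its signal was 6.91, 7.25 and 7.18 in LPS-treated and 7.39, 7.52 and 7.39 in untreated Hdac3 -/- cells, against 8.90, 9.02 and 8.66 in LPS-treated and 9.42, 9.10 and 8.98 in untreated Hdac3 +/- cells (log2 signals of replicates 1 to 3). The highest -/- array was more than 1 log2 unit below the lowest +/- array. The mean difference was -1.75 ± 0.153 after LPS (limma, log2 difference ± SE, adjusted p = 5.9e-06) and -1.74 ± 0.153 untreated (adjusted p = 1.66e-05), which left 29.7% and 30.0% of the signal of the +/- cells. A signal remained in every -/- array: the probe set ranked between the 69.9th and 76.2nd percentile of its array there, against the 88.4th to 92.9th in +/- cells. The sources used here do not say which exons the deletion removes or which the probes read, so the remaining signal does not measure residual protein or undeleted cells.

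Hdac3 itself was slightly lower after LPS, by an amount that did not pass the test in either genotype. The LPS difference was -0.32 ± 0.153 in -/- cells (adjusted p = 0.262) and -0.31 ± 0.153 in +/- cells (adjusted p = 0.158). The LPS-treated and untreated arrays did not overlap in -/- cells and overlapped in +/- cells. Averaged over both genotypes, a contrast added after the data were seen, the difference was -0.31 ± 0.108 (adjusted p = 0.0446), and it lost the call in 13 of 20 alternative settings, with adjusted p between 0.0067 and 0.119. These were the fits without -/- LPS replicates 1 and 3, each -/- untreated replicate, +/- LPS replicates 1 and 3 and +/- untreated replicates 1 and 2, and 4 other settings, with the highest adjusted p without -/- LPS replicate 1. The genotype difference of the LPS response was -0.02 ± 0.216 (95% interval -0.48 to 0.45, adjusted p = 0.987).

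**Figure D1:**
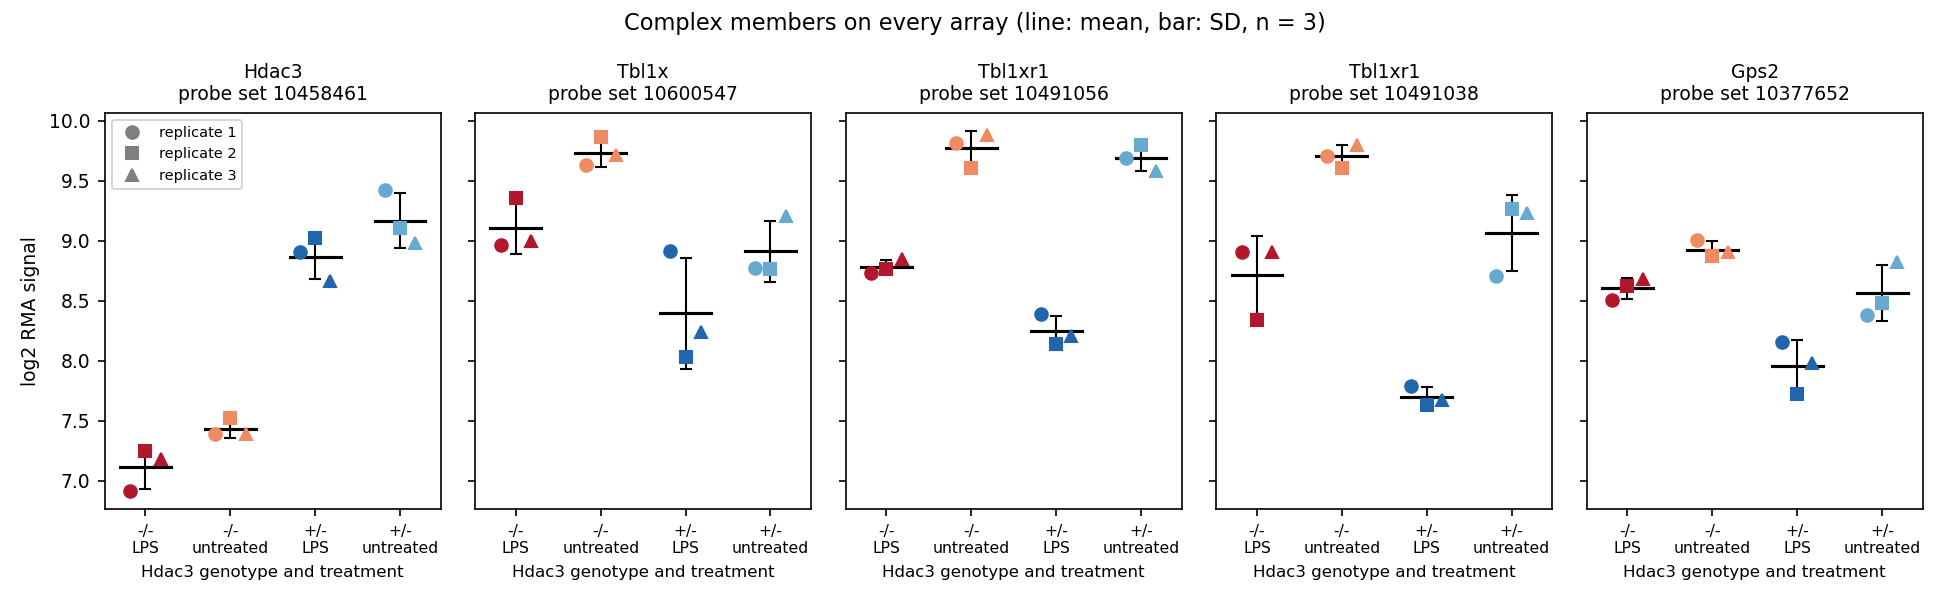
Log2 signal of each member probe set on every array, with the groups ordered Hdac3 -/- LPS, Hdac3 -/- untreated, Hdac3 +/- LPS and Hdac3 +/- untreated along the horizontal axis. Points are single arrays with a symbol per replicate number, lines are group means and bars are SD (n = 3); all Hdac3 -/- arrays lie below all +/- arrays in the Hdac3 panel, and LPS-treated arrays lie below untreated ones of their genotype in both Tbl1xr1 panels.

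Tbl1x, one of the WD-repeat subunits, had its highest signals in untreated -/- cells. Its log2 signal was 8.97, 9.35 and 8.998 in LPS-treated and 9.63, 9.86 and 9.71 in untreated Hdac3 -/- cells. In Hdac3 +/- cells it was 8.91, 8.03 and 8.24 after LPS and 8.77, 8.77 and 9.21 untreated. Within each treatment every -/- array lay above every +/- array, although after LPS the gap was narrow because +/- replicate 1 reached 8.91. In order of group means, untreated -/- cells came first (9.74 ± 0.120), then LPS-treated -/- cells (9.11 ± 0.215), untreated +/- cells (8.91 ± 0.255) and LPS-treated +/- cells (8.40 ± 0.461, SD, n = 3 each), and the middle groups overlapped.

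After LPS, Tbl1x was 0.71 ± 0.210 higher in -/- cells (95% interval 0.26 to 1.16, adjusted p = 0.0349), or 164% of the +/- signal. Without LPS the difference was 0.82 ± 0.210 (95% interval 0.37 to 1.27) and missed the threshold (adjusted p = 0.0578). The call after LPS was lost when +/- LPS replicate 2 (0.53, adjusted p = 0.135) or replicate 3 (0.64, adjusted p = 0.129) was left out. It was also lost when -/- LPS replicate 1 (0.78, adjusted p = 0.062), 2 (0.59, adjusted p = 0.115) or 3 (0.77, adjusted p = 0.0762) was. Averaged over both treatments, a contrast added after the data were seen, Tbl1x was 0.77 ± 0.149 higher in -/- cells (95% interval 0.45 to 1.09, adjusted p = 0.00305), or 170% of the +/- signal, and this call held in all 20 alternative settings. Without both arrays of +/- replicate 1 the difference was 0.97 after LPS (adjusted p = 0.004), 0.75 untreated (adjusted p = 0.0617) and 0.86 on average (adjusted p = 0.00103).

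The LPS difference of Tbl1x was negative in both genotypes and passed in neither. It was -0.63 ± 0.210 in -/- cells (adjusted p = 0.0872) and -0.52 ± 0.210 in +/- cells (adjusted p = 0.0873). Within same-numbered +/- arrays the LPS difference was 0.14 for replicate 1, -0.74 for replicate 2 and -0.97 for replicate 3. Replicate 1 thus went the other way, and it is the pair of arrays with Y-linked transcripts. With both of those arrays left out, an alternative chosen after the data were seen, the LPS difference was -0.63 in -/- cells (adjusted p = 0.0289) and -0.85 in +/- cells (adjusted p = 0.00895). The part of sex in these values was not tested.

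Tbl1xr1, the close relative of Tbl1x, fell after LPS in both genotypes and by the largest amount among the 4 genes. Its brighter probe set, 10491056, read 8.73, 8.76 and 8.84 in LPS-treated against 9.82, 9.61 and 9.89 in untreated Hdac3 -/- cells, and 8.39, 8.14 and 8.21 in LPS-treated against 9.69, 9.80 and 9.59 in untreated Hdac3 +/- cells. LPS-treated and untreated arrays stood apart by more than 0.7 log2 units in each genotype. The LPS difference was -0.99 ± 0.127 in -/- cells (adjusted p = 0.000191), which left 50.3% of the untreated signal, and -1.44 ± 0.127 in +/- cells (adjusted p = 2.77e-06), which left 36.7%. Both calls held in every alternative setting.

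For this probe set the genotype difference passed after LPS and not at rest. Untreated, the -/- arrays (9.77 ± 0.145) and the +/- arrays (9.69 ± 0.105) overlapped, with a difference of 0.08 ± 0.127 (95% interval -0.19 to 0.35, adjusted p = 0.893). After LPS the -/- arrays (8.78 ± 0.0582) all lay above the +/- arrays (8.25 ± 0.128), a difference of 0.53 ± 0.127 (95% interval 0.26 to 0.81, adjusted p = 0.0115), or 145% of the +/- signal. That call was lost without -/- LPS replicate 3 (0.50, adjusted p = 0.0537). The difference between both LPS responses was 0.45 ± 0.179 (95% interval 0.07 to 0.84) and did not pass over all genes (adjusted p = 0.322), so the smaller fall in -/- cells is not shown to differ.

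The other Tbl1xr1 probe set, 10491038, also fell with LPS in both genotypes and stood further apart by genotype. It read 8.90, 8.34 and 8.91 in LPS-treated and 9.71, 9.61 and 9.80 in untreated -/- cells, against 7.79, 7.63 and 7.67 in LPS-treated and 8.70, 9.26 and 9.24 in untreated +/- cells. In a fit of all 21648 probe sets with 1 symbol, its LPS difference was -0.99 ± 0.182 in -/- cells (adjusted p = 0.00357) and -1.37 ± 0.182 in +/- cells (adjusted p = 0.000113). Here the -/- arrays lay above the +/- arrays in both states, by 1.02 ± 0.182 after LPS (adjusted p = 0.00202, with 15.3% of probe sets called in either direction) and by 0.64 ± 0.182 untreated, which did not pass (adjusted p = 0.0964).

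The gap between both Tbl1xr1 probe sets was picked out after its values were seen, so no test result is given for it. Subtracting 10491056 from 10491038 on each array gave 0.17, -0.42 and 0.06 in LPS-treated and -0.11, -0.0021 and -0.09 in untreated -/- cells, against -0.60, -0.51 and -0.54 in LPS-treated and -0.99, -0.53 and -0.35 in untreated +/- cells. Within each treatment the -/- arrays all lay above the +/- arrays. The mean gap was 0.52 higher in -/- cells within treatments, and LPS-treated and untreated arrays of a genotype overlapped in it, with a mean difference of 0.04. The sources used here do not say which stretch of the transcript each probe set reads.

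**Figure D2:**
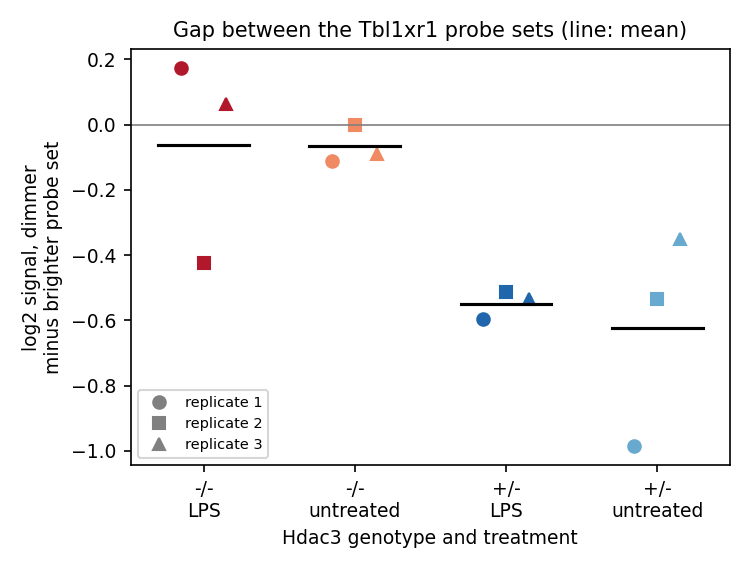
Log2 signal of Tbl1xr1 probe set 10491038 minus that of 10491056 on each array, by group; points are arrays and bars are group means (n = 3). Within each treatment all Hdac3 -/- arrays lie above all Hdac3 +/- arrays, with group means of -0.06 and -0.07 in -/- cells and -0.55 and -0.62 in +/- cells (LPS, then untreated).

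Gps2, the bridging subunit, was higher in -/- cells after LPS and fell with LPS in +/- cells. Its log2 signal was 8.51, 8.62 and 8.68 in LPS-treated and 9.01, 8.87 and 8.90 in untreated Hdac3 -/- cells, against 8.16, 7.73 and 7.98 in LPS-treated and 8.38, 8.48 and 8.82 in untreated Hdac3 +/- cells. No 2 groups set against each other overlapped within a genotype or within a treatment, although untreated replicate 3 of the +/- cells (8.82) came within 0.1 of the lowest untreated -/- array (8.87). The LPS-treated -/- group (8.61 ± 0.0892) and the untreated +/- group (8.56 ± 0.232) overlapped.

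After LPS, Gps2 was 0.65 ± 0.149 higher in -/- cells (95% interval 0.33 to 0.97, adjusted p = 0.00917), or 157% of the +/- signal. Untreated, the difference was 0.36 ± 0.149 (95% interval 0.04 to 0.68, adjusted p = 0.2995). In +/- cells Gps2 fell by 0.61 ± 0.149 on the log2 scale with LPS, which left 65.5% of the untreated signal (adjusted p = 0.00835), with differences of -0.22, -0.76 and -0.85 within same-numbered arrays. In -/- cells the LPS difference was -0.32 ± 0.149 (adjusted p = 0.245). The called differences held in every alternative setting, while the difference between both LPS responses was 0.29 ± 0.210 (95% interval -0.17 to 0.74, adjusted p = 0.661) and did not pass.

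Counted together, 3 of 4 members were higher in -/- cells after LPS, Tbl1x, Tbl1xr1 and Gps2, against 9.69% of all genes tested, and Hdac3 was the member among the 5.99% that were lower. Untreated, Hdac3 alone was called, against 1.44% of genes lower and 1.22% higher. Hdac3 is the gene deleted in the -/- cells, so its genotype calls are not a result about the complex. LPS lowered 2 of 4 members in +/- cells, Tbl1xr1 and Gps2, where 15.5% of all genes fell and 9.59% rose, and 1 of 4 in -/- cells, Tbl1xr1, where 5.18% fell and 3.69% rose. The members are bright genes, and brighter genes were called more often after LPS: over the 11582 genes whose highest group mean exceeded the median of all probe sets (5.27), 18.3% were higher in -/- cells after LPS and 27.6% fell with LPS in +/- cells. The interaction called none of the 4 members by limma at adjusted p, against 1.08% of all genes, and 1 of 4, Tbl1xr1, had an unadjusted 95% interval that left out 0, where 11.4% of all genes had an unadjusted p under 0.05.

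Averaged over treatments, a set of contrasts added after the data were seen, all 3 partner subunits were higher in -/- cells, against 9.92% of genes and 18.5% of the brighter genes. Hdac3 was lower, against 6.49% of genes and 10.8% of the brighter genes. Gps2 stood at 0.51 ± 0.105 (95% interval 0.28 to 0.73, adjusted p = 0.00473), 142% of the +/- signal, and held in all 20 alternatives. Tbl1xr1 stood at 0.31 ± 0.0897 (95% interval 0.11 to 0.50, adjusted p = 0.0317) and lost the call in 8 of the 12 fits that left out 1 array (0.28 to 0.32, adjusted p up to 0.0829): -/- LPS 1 or 3, -/- untreated 1 or 3, +/- LPS 2 or 3, and +/- untreated 1 or 3. Averaged over genotypes, all 4 members were lower after LPS, against 17.2% of genes lower and 10.5% higher. Of the brighter genes 29.9% were lower and 14.9% higher. Tbl1xr1 stood at 43.0% of the untreated signal (-1.22 ± 0.0897, adjusted p = 3.33e-07), Tbl1x at -0.57 ± 0.149 (adjusted p = 0.0103) and Gps2 at -0.47 ± 0.105 (adjusted p = 0.00432). The Tbl1x call held in all 20 alternatives (-0.74 to -0.48), among them the fit without both +/- replicate 1 arrays. Hdac3 stood at -0.31 ± 0.108 (adjusted p = 0.0446) and lost the call in 13 of 20 alternatives. These averages share their arrays with the separate comparisons and add no independent evidence.

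**Figure D3:**
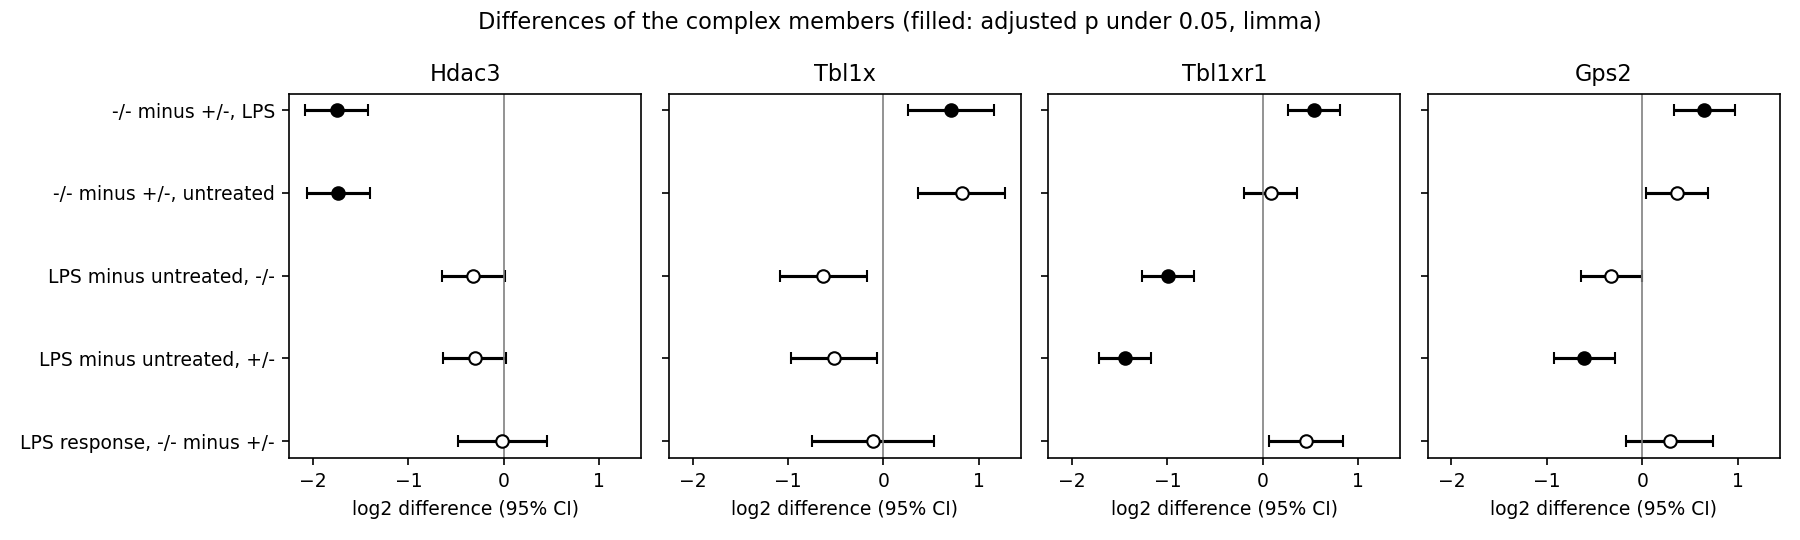
Log2 differences of the 4 members with 95% intervals from limma, for Hdac3 -/- minus +/- after LPS and untreated, for LPS minus untreated in each genotype, and for the difference of both LPS responses; filled points passed an adjusted p of 0.05. Hdac3 lies near -1.75 in both genotype comparisons, the partner subunits lie to the right of 0 there, and every LPS difference lies to the left of 0.

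The genes whose pattern over the 12 arrays was most like each member's were found by the root mean square difference of log2 signals after each gene's own mean was removed. Hdac3, whose own spread by that measure was 0.897, lay nearest to Tle1, a corepressor of the Groucho family, at 0.325, ahead of Slc12a7 at 0.384 and Ly6e at 0.396. Tle1 averaged 4.46 in LPS-treated and 4.61 in untreated -/- cells, against 6.04 in LPS-treated and 5.81 in untreated +/- cells. Tbl1x (own spread 0.535) was nearest to Yaf2 at 0.202, then Anxa3 and Ccdc127, both at 0.210. Tbl1xr1 (0.645) lay 0.128 from Ankrd10, 0.130 from Tmem64 and 0.141 from Gba2. Gps2 (0.378) lay 0.0854 from Ccdc127, 0.100 from Pnn and 0.112 from Zc3h14, so Ccdc127 was among the nearest genes of both Tbl1x and Gps2. With 19945 genes and 12 arrays some genes must lie close to any pattern, and these distances are descriptions.

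Arrays are named below by group and replicate number, and a call lost without one had an adjusted p over the threshold there. The counts below stand against the shares of all genes called. These were 9.69% higher and 5.99% lower in -/- cells after LPS, and 1.22% and 1.44% at rest. They were 3.69% up and 5.18% down with LPS in -/- cells, and 9.59% up and 15.5% down with LPS in +/- cells. Both these shares and the medians of all genes include dim genes. Of the 11582 brighter genes 18.3% were higher and 9.51% lower in -/- cells after LPS, and 2.36% and 2.66% at rest. With LPS 6.72% of them rose and 10.1% fell in -/- cells, and 13% rose and 27.6% fell in +/- cells. Over the 11582 brighter genes the median difference between genotypes was 0.11 after LPS and 0.03 at rest. With LPS the median over the brighter genes was -0.05 in -/- cells and -0.15 in +/- cells. Beyond the members, 7 listed corepressor partners were measured. None passed between genotypes at rest by limma, with 1 at an unadjusted p under 0.05, where 12.7% of all genes were (median difference 0.09, all genes 0.01). After LPS 5 of 7 had an unadjusted limma p under 0.05, where 28.9% of all genes did. By adjusted p 1 of 7 was lower in -/- cells (all genes 5.99%) and none higher (median 0.31, all genes -0.04, brighter genes 0.11). That gene was Coro2a, a coronin found in the NCoR complex that links it to actin, with 6.27, 7.11 and 6.87 in LPS-treated -/- cells against 9.32, 9.03 and 9.36 in LPS-treated +/- cells. The difference was -2.49 ± 0.239 (adjusted p = 1.32e-05) and held in every alternative setting. At rest it read 7.53, 8.01 and 7.25 in -/- cells against 8.72, 8.12 and 8.58 in +/- cells (-0.87, adjusted p = 0.0771). LPS lowered 2 of 7 in -/- cells, Hdac5 and Coro2a, and in +/- cells lowered Hdac5 and Hdac4 and raised Coro2a. Hdac5, a class IIa deacetylase that binds Hdac3 through the scaffolds, had an LPS difference of -1.08 in -/- cells (adjusted p = 0.000196) and -1.32 in +/- cells (adjusted p = 1.41e-05). Hdac4, of the same class, fell by 0.66 in +/- cells (adjusted p = 0.0128, lost in 2 of 22 alternatives, up to 0.0837 without both +/- replicate 1 arrays).

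Coro2a moved in opposite directions with LPS in the genotypes. The LPS difference was -0.85 in -/- cells (adjusted p = 0.041, lost in 10 of 21 alternatives, among them the fits without -/- LPS 1 or 3, -/- untreated 1 or 2, +/- LPS 3 or +/- untreated 3, with p up to 0.197). It was 0.77 in +/- cells (adjusted p = 0.0307, lost in 6 of 22, among them without +/- LPS 1 or 3 and +/- untreated 2 or 3, with p up to 0.1003). The difference of both responses was -1.61 ± 0.338 (adjusted p = 0.0373), and it lost the call in 10 of 20 alternatives, with adjusted p from 0.0126 to 0.0976, among them the fits without -/- LPS 1 or 3, -/- untreated 1 or 2, +/- LPS 1 or 3 and +/- untreated 2 or 3.

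Of 16 listed factors that fold, modify or activate Hdac3, 15 were measured. None passed at rest by limma, with 2 at an unadjusted p under 0.05, where 12.7% of all genes were (median 0.07, all genes 0.01). After LPS 8 of 15 had an unadjusted p under 0.05 between genotypes, where 28.9% of all genes did. By adjusted p 1 of 15 was higher (all genes 9.69%) and 2 lower (all genes 5.99%) in -/- cells (median 0.32, all genes -0.04, brighter genes 0.11). The higher one was Cct4, a subunit of the TRiC chaperonin that folds Hdac3 (0.47, adjusted p = 0.0374, lost in 6 of 21 alternatives, among them without -/- LPS 1 or 3, -/- untreated 1 or +/- LPS 2 or 3, with p up to 0.172). Lower were Itpk1, a kinase of the inositol phosphates that Hdac3 complexes bind (-0.49, adjusted p = 0.0287, lost in 5 of 21, among them without -/- LPS 2 or +/- LPS 1 or 3, with p up to 0.106), and Ppp4r1, a regulatory subunit of protein phosphatase 4 (-0.48, adjusted p = 0.0401, lost in 10 of 21, among them without any -/- LPS array, -/- untreated 1 or +/- LPS 1 or 3, with p up to 0.181). With LPS, Cct3 rose by 0.90 in -/- cells (adjusted p = 0.0246, lost in 4 of 21, without -/- LPS 1 or 3 or -/- untreated 1 or 3, with p up to 0.116), 1 of 15, and none of 15 passed in +/- cells, with 4 at an unadjusted p under 0.05, where 38.3% of all genes were (median -0.02, all genes 0.08).

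All 8 listed genes of corepressor exchange and ubiquitination were measured, and none passed at rest by limma, adjusted or not (median 0.06, all genes 0.01). After LPS 2 of 8 had an unadjusted p under 0.05 between genotypes, where 28.9% of all genes did. By adjusted p 1 of 8, Camk2g, a calcium- and calmodulin-dependent kinase, was higher in -/- cells (9.69% of all genes, list median 0.13, all genes -0.04). Its signal was 6.75, 6.66 and 6.86 in LPS-treated -/- cells and 7.63, 7.43 and 7.31 in untreated -/- cells, against 5.89, 5.57 and 5.54 in LPS-treated and 7.48, 7.38 and 7.37 in untreated +/- cells. The genotypes overlapped at rest and stood apart after LPS, by 1.09 ± 0.137 (adjusted p = 0.00013). The LPS difference of Camk2g was -0.70 in -/- cells (adjusted p = 0.00496) and -1.74 in +/- cells (adjusted p = 1.01e-06), and the difference of both responses passed at 1.04 ± 0.193 (adjusted p = 0.0197, lost in 4 of 20 alternatives, without -/- LPS 1 or 3, -/- untreated 3 or +/- LPS 3, with p up to 0.0668). In +/- cells Ikbke, an IkB kinase relative, rose by 0.64 (adjusted p = 0.0262, lost in 6 of 22, among them without +/- LPS 2 or 3 or +/- untreated 1 or 3, with p up to 0.0811).

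The nuclear receptors and other factors listed as bringing the complex to DNA, 21 of 24 measured, were the list with calls at rest. Untreated, 3 of 21 were higher (all genes 1.22%) and 1 lower (all genes 1.44%) in -/- cells (median 0.18, all genes 0.01). Nr1d1, the heme-binding receptor Rev-erb alpha, stood at 0.91 ± 0.146 (adjusted p = 0.00323) in all alternatives. Rara, a retinoic acid receptor, stood at 0.87 (adjusted p = 0.0225, lost in 6 of 21, among them without -/- untreated 2 or 3 or any +/- untreated array, with p up to 0.105). Rxra, the shared partner of many nuclear receptors, stood at 0.71 (adjusted p = 0.0173, lost in 4 of 21, among them without -/- untreated 1 or 2 or +/- untreated 1, with p up to 0.0785). Pparg, a fatty acid receptor named after its value was seen to complete the count, stood at -0.68 (adjusted p = 0.0218, lost in 5 of 21, among them without -/- untreated 1 or 3 or +/- untreated 3, with p up to 0.105). After LPS 10 of 21 had an unadjusted limma p under 0.05, where 28.9% of all genes did. By adjusted p 5 were higher (all genes 9.69%, brighter genes 18.3%) and 2 lower (all genes 5.99%, brighter genes 9.51%). The list median was 0.01 (all genes -0.04, brighter genes 0.11). Nr1d1 led at 1.59 (adjusted p = 8.9e-06), with Ppard, another fatty acid receptor, at 1.32 (adjusted p = 0.000259). The ETS repressor Etv6 stood at -0.9999 (adjusted p = 0.0212, lost in 3 of 21, without -/- LPS 1 or 2 or +/- LPS 3, with p up to 0.104).

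With LPS, 1 of these 21 factors rose (all genes 3.69%) and 3 fell (5.18%) in -/- cells (median 0.05, all genes 0.02), against 3 up (9.59%) and 4 down (15.5%) in +/- cells (median -0.00094, all genes 0.08). Rxra fell in both genotypes, with -1.03 in -/- cells (adjusted p = 0.000442) and -1.15 in +/- cells (adjusted p = 7.1e-05). In -/- cells Nr1d2, a relative of Nr1d1, stood at -0.999 (adjusted p = 0.017, lost in 3 of 21, without -/- LPS 1 or 3 or -/- untreated 3, with p up to 0.0796). In the same cells Nr1d1 rose by 0.58 (adjusted p = 0.0222, lost in 3 of 21, without -/- LPS 1 or 3 or -/- untreated 1, with p up to 0.116). In +/- cells Pparg fell by 1.19 (adjusted p = 5.69e-05) and Etv6 rose by 1.35 (adjusted p = 0.00212). None of the 21 passed the interaction test of limma, with 6 at an unadjusted p under 0.05 (11.4% of all genes).

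The subunits of other deacetylase complexes, Sin3, NuRD and CoREST, served as a comparison list, and all 29 were measured. None passed at rest by limma, with 5 at an unadjusted p under 0.05, where 12.7% of all genes were (median 0.01, all genes 0.01). After LPS 14 of 29 had an unadjusted p under 0.05 between genotypes, where 28.9% of all genes did. By adjusted p 3 were then higher (all genes 9.69%) and 5 lower (5.99%) in -/- cells (median 0.11, all genes -0.04, brighter genes 0.11). The largest were Arid4a, a Sin3 subunit, at -1.02 (adjusted p = 0.00158) and Hdac1, the deacetylase shared by these complexes, at -0.91 (adjusted p = 0.000917). LPS raised 1 (all genes 3.69%) and lowered 2 (5.18%) in -/- cells (median -0.26, all genes 0.02, brighter genes -0.05). In +/- cells it raised 3 (9.59%) and lowered 10 (15.5%, or 27.6% of the brighter genes), with a median of -0.39 (all genes 0.08, brighter genes -0.15). At an unadjusted limma p under 0.05 with LPS were 8 of 29 in -/- cells (all genes 20.1%) and 20 of 29 in +/- cells (all genes 38.3%). Sap30, a Sin3 subunit, rose by 1.22 in -/- cells and by 1.81 in +/- cells (adjusted p = 4.13e-06). The Sin3a scaffold stood at -1.45 in +/- cells (adjusted p = 2.58e-05), and Ing2 fell by 0.60 in -/- cells (lost in 3 of 21, without -/- LPS 1 or -/- untreated 1 or 3, with p up to 0.112).

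**Figure D4:**
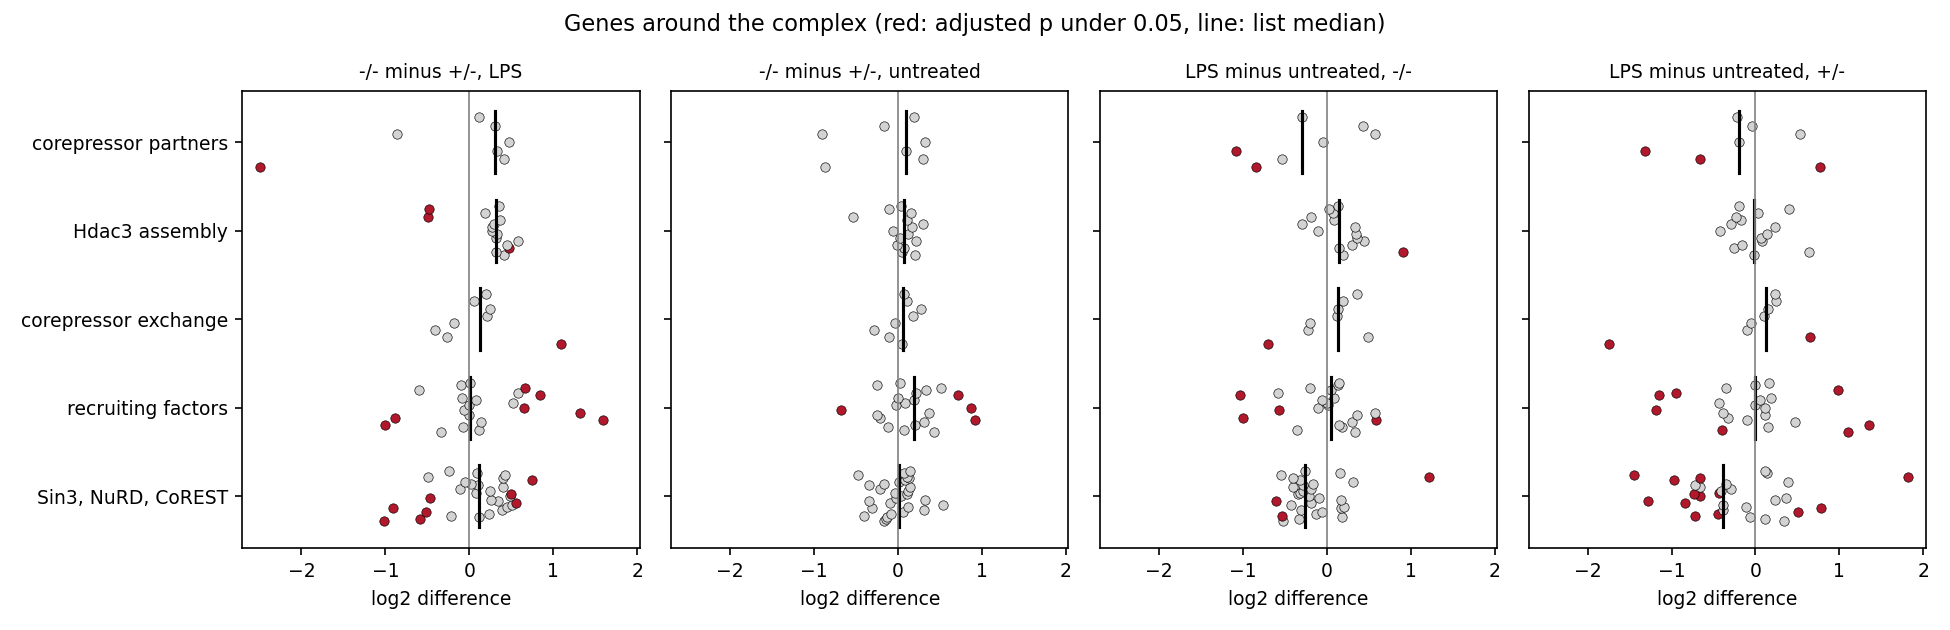
Log2 differences of the genes of 5 lists around the complex, for Hdac3 -/- minus +/- after LPS and untreated and for LPS minus untreated in each genotype; each point is a gene, red where it passed an adjusted p of 0.05, and the vertical lines are list medians. Coro2a at -2.49 is the lowest point among the corepressor partners, and the Sin3, NuRD and CoREST list has its lowest median, -0.39, with LPS in +/- cells.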

How the data were processed

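RNA of the 12 cultures was extracted on RNeasy columns with DNase and measured on Affymetrix whole-transcript arrays from biotin-labelled cDNA, per the labels' protocols. The deposited values are log2 signals that the authors made by RMA with affy, per the submitters' processing notes; the sources used here do not give versions, settings, chip description or build. The arrays did not share 1 distribution (interquartile ranges 3.19 to 3.80), so quantile normalization was tried. These ranges went with the groups compared. They were 3.19 to 3.485 in LPS-treated and 3.52 to 3.80 in untreated +/- cells. In -/- cells they were 3.39 to 3.70 with LPS and 3.59 to 3.74 untreated. The members' genotype calls after LPS held under quantile normalization, and the part of this spread in them was not tested further. RMA merges all probes of a set into 1 value, so a change in a single exon or isoform is averaged with the rest. Precision is limited by the number of arrays.

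Of 28193 probe sets, 21648 had 1 gene symbol, 1313 several and 5232 none. By Entrez identifier 21561 of those with 1 symbol were found among RefSeq genes of GRCm38.p6, and 0 symbols changed. Probe sets with several symbols or none were left out. Where a gene had several probe sets (954 genes), the brightest on average was tested, which gave 19945 genes. Promoter windows came from RefSeq, GRCm38.p6, and 3 of the 4 members are shown. The interferon and NF-kB motifs were searched in shortened forms.

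limma 3.58.1 (R 4.3.3) fitted 4 group means to all 12 arrays, with eBayes without trend and Benjamini-Hochberg adjustment over all genes of a contrast. A gene was called at an adjusted p under 0.05. The fit was tested on simulated data first. An exact permutation test of 3 against 3 arrays cannot go below 0.1. Tables used Python 3.11.15, pandas 2.3.3 and numpy 2.4.6, and figures matplotlib 3.10.9.

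The members and gene lists were chosen with earlier results of these data known. The text names all members, up to 3 called genes of largest change per list and contrast (2 for Sin3, NuRD and CoREST), and the 3 genes nearest to each member, without predicted genes and clone names. The averaged contrasts, the Tbl1xr1 gap, the fit without the arrays carrying Y-linked transcripts and the neighbours of Hdac3 were added after the data were seen. Alternatives were quantile normalization, leaving out dim genes, all probe sets, array weights, a trended robust eBayes, only the groups compared, replicate blocks and each array left out.

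Replicate numbers were checked by correlating deviations from group means. LPS-treated and untreated arrays of a number correlated at 0.243, 0.327 and 0.223 in Hdac3 +/- cells and at 0.0898, 0.195 and -0.122 in Hdac3 -/- cells, and across genotypes at -0.472 to 0.155. The numbers were taken to pair the Hdac3 +/- arrays alone, from the data and not from the labels. Arrays of different numbers were not correlated for reference, so the check cannot show that +/- arrays are paired and -/- arrays are not. The main fit had no replicate block, so its LPS differences, SE and adjusted p-values are unpaired. Pairing entered only the differences within same-numbered +/- arrays and the alternative fits with replicate blocks.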

Additional observations from a re-analysis of the deposited data

Results flagged for a closer look

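Coro2a and Camk2g, both outside the complex's core, differed between genotypes in their response to LPS by the interaction test of limma. For Coro2a the LPS response was lower in Hdac3 -/- cells than in Hdac3 +/- cells, with a log2 difference of differences of -1.61, from a fall in -/- cells and a rise in +/- cells. The value ranged from -1.80 to -1.37 over the alternatives. The call was lost without -/- LPS replicate 1 (-1.37, adjusted p = 0.0861) or 3 (-1.67, adjusted p = 0.0837), without -/- untreated replicate 1 (-1.65, adjusted p = 0.0875) or 2 (-1.41, adjusted p = 0.0694), without +/- LPS replicate 1 (-1.57, adjusted p = 0.0554) or 3 (-1.55, adjusted p = 0.0976), and without +/- untreated replicate 2 (-1.44, adjusted p = 0.0723) or 3 (-1.67, adjusted p = 0.0663). It was also lost with the replicate block (adjusted p = 0.0706) and without both arrays carrying Y-linked transcripts (-1.69, adjusted p = 0.0639).

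For Camk2g the response was 1.04 higher in Hdac3 -/- cells, where LPS lowered it less than in Hdac3 +/- cells. It ranged from 0.97 to 1.16, and the call was lost without -/- LPS replicate 1 (1.05, adjusted p = 0.059) or 3 (0.99, adjusted p = 0.0668), without -/- untreated replicate 3 (0.97, adjusted p = 0.0564) and without +/- LPS replicate 3 (0.98, adjusted p = 0.0584).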

How the results depend on the processing

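The Hdac3 genotype differences, the LPS falls of Tbl1xr1 in both genotypes, the Gps2 difference after LPS and its fall in Hdac3 +/- cells kept direction and call in every alternative run. Tbl1x after LPS (0.71) missed the threshold with only the groups compared (adjusted p = 0.0616) and with the replicate block (adjusted p = 0.0569), and ran from 0.53 to 0.97 with 1 array left out. Tbl1xr1 after LPS ran from 0.48 to 0.61. Tbl1x untreated passed with array weights (0.80), without dim genes (0.82), with only the groups compared (0.82) and under quantile normalization (0.83), from 0.75 to 0.97 with 1 array left out, and without +/- LPS replicate 1 (adjusted p = 0.0151) or 2 (adjusted p = 0.0372). LPS in -/- cells passed with array weights for Gps2 (-0.40), Hdac3 (-0.39) and Tbl1x (-0.64), and for Tbl1x also with only the groups compared (-0.63) and without the arrays carrying Y-linked transcripts (-0.63), from -0.75 to -0.56 with 1 array left out, and without +/- LPS replicate 1 (adjusted p = 0.0262). Tbl1x with LPS in +/- cells was -0.85 without those arrays and -0.78 to -0.34 with 1 left out. It passed at -0.78 without +/- LPS replicate 1 (adjusted p = 0.00649). The interaction changed sign, far from the threshold, for Hdac3 with array weights (0.048), with quantile normalization (0.038) and with 1 array left out (-0.14 to 0.085), and for Tbl1x without the arrays carrying Y-linked transcripts (0.22) and with 1 left out (-0.29 to 0.15). The cause of these shifts was not tested.

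Counts of called genes moved more. In -/- against +/- untreated, 531 became 1186 with array weights, 321 with only the groups compared and 266 to 606 with 1 array left out, lowest without -/- untreated replicate 1. After LPS 3127 became 1685 to 3495, with 1685 without -/- LPS replicate 3, 2023 without -/- LPS replicate 1 and 1828 without +/- LPS replicate 3. LPS in -/- cells gave 1769, 4424 with array weights and 1129 to 1941 with 1 left out, lowest without -/- LPS replicate 1 and at 1143 without -/- untreated replicate 1. LPS in +/- cells gave 4997, with 3636 to 5983 when 1 was left out. The interaction gave 216, 592 with array weights, 347 with the replicate block within genotype and 97 (without -/- untreated replicate 1) to 349 (without +/- LPS replicate 1). In fits of the +/- arrays alone, LPS called 4639 genes with a replicate block and 3612 without one. With that block no member's call changed from the main fit. In fits of all arrays, the 4997 genes called with LPS in +/- cells became 5626 with the replicate block within genotype. They became 4864 with the replicate block not kept within genotype.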

Other observations

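Among the 3 measured genes on each side of Hdac3 in RefSeq order (GRCm38.p6), Slc25a2, Taf7, Diaph1, Rell2, Fchsd1 and Arap3, none was called between genotypes at rest. After LPS Taf7, a subunit of the general transcription factor TFIID, was lower in Hdac3 -/- cells by 0.69 (adjusted p = 0.0111), against -0.03 at rest, and Diaph1, next to Hdac3, stood at -0.28 after LPS (adjusted p = 0.228) and 0.03 at rest. Taf7 alone of these genes was called, where 5.99% of all genes were lower and 9.69% higher. Its mean signal over the arrays was 5.66, near the median of all probe sets (5.27). A link of Taf7 to the deletion was not tested. These genes were looked up after the data were seen.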
